A study of Homo sapiens with 12 samples.

Results

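The TRiC complex, also called CCT, is the chaperonin of the human cytosol, and its 8 subunit genes, TCP1, CCT2, CCT3, CCT4, CCT5, CCT6A, CCT7 and CCT8, were followed here by ribosome footprints in HAP1 cells. The 8 were selected by their Ensembl gene identifiers from the 19580 genes of the table, and all 8 were found and passed the filter on low values. HAP1 cells, here of wild-type genotype, are an established human line with close to a single set of chromosomes. Cells received 4-thiouridine (4SU) at 5 uM for 18 h followed by UVA at 6 kJ per square metre and 30 min of recovery (4SU+UVA), 4SU alone, UVA alone, or no treatment, with 3 biological replicates in each of the 4 groups and 12 libraries in all. Single treatments used the same doses. UVA alone was also followed by 30 min of recovery, whereas 4SU alone and untreated cells are labelled with 0 min. Light and recovery thus came together, and their effects cannot be told apart. 4SU is a uridine analogue that cells build into new RNA. UVA light makes it react with protein touching the RNA, and the combination is therefore the crosslinking treatment. The label of the line could not be set against marker genes, because the table pairs its identifiers with no symbols.

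TRiC is built of a pair of stacked rings, each with a single copy of every subunit at a fixed place, and newly made proteins fold inside the chamber with ATP. Actin and tubulin depend on it, and so do many proteins with WD40 propellers. Because every subunit fills the same number of places, a complete complex holds all of them in equal amounts. The subunits also bind ATP unequally: in yeast, CCT2 and CCT4 are among those that bind it tightly, whereas CCT3, CCT6 and CCT8 bind it weakly.

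The genes lie on 7 chromosomes, and only CCT4 and CCT7 share one. On GRCh38.p14, per RefSeq, TCP1 (ENSG00000120438.12), the alpha subunit and the first to be known, spans chr6:159778498-159789602. CCT2 (ENSG00000166226.13), the beta subunit, spans chr12:69585459-69601570 and CCT3 (ENSG00000163468.15), the gamma subunit, chr1:156308968-156338292. CCT4 (ENSG00000115484.15), the delta subunit, lies at chr2:61868085-61888671 and CCT7 (ENSG00000135624.17), the eta subunit, at chr2:73234308-73253005. CCT5 (ENSG00000150753.12), the epsilon subunit, which can form rings by itself when purified, lies at chr5:10249921-10266412. CCT6A (ENSG00000146731.11), the zeta subunit, which has a testis paralogue in CCT6B, lies at chr7:56051765-56063989, and CCT8 (ENSG00000156261.13), the theta subunit, at chr21:29056326-29073648. RefSeq lists 16 pseudogenes named after 7 of the subunits (5 of them after CCT6A, none after CCT2), and the TCP1, CCT3 and CCT4 genes each overlap another protein-coding gene (ACAT2, TSACC and COMMD1). The treatment of reads shared with such copies or neighbours, and the use of strand in counting, were not stated, so small differences between subunits may hold such reads.

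The transcripts behind the density values were of middling length. Recovered from the steps of the values, they measured 1847 nt for CCT7, 1854 nt for CCT8, 1916 nt for CCT2 and 1977 nt for CCT3. TCP1 had 2352 nt, CCT4 2376 nt, CCT6A 2584 nt and CCT5 3293 nt, so that the longest was CCT5 and the shortest CCT7. Of the 11510 genes tested, 30.7% had a transcript shorter than that of CCT7 and 62.5% one shorter than that of CCT5. All 8 were among the most densely covered genes, with 96.9% of the genes tested at a lower mean density than CCT6A and 99.3% at a lower one than CCT3.

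The promoters of the subunits that later marked the ends of the range of responses, TCP1 and CCT2, are printed because these subunits differed most from their partners. Each window crosses the RefSeq start site on GRCh38.p14, chr6:159789553-159789852 on the minus strand for TCP1 and chr12:69585209-69585508 on the plus strand for CCT2. Capitals mark matches on either strand to 4 motifs. The heat shock element, bound by heat shock factors, was searched as GAANNTTC. The core bound by ETS-family factors was searched as CCGGAAG. The box bound by NF-Y was searched as CCAAT, and the GC box bound by Sp1 and its relatives as GGGCGG. No marked match overlaps another.
TCP1: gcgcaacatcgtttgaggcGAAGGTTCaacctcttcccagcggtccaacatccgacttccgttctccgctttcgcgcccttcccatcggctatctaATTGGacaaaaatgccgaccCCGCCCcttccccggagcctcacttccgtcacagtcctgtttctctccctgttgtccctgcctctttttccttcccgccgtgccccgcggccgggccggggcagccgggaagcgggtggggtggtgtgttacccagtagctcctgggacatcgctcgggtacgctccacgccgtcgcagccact
CCT2: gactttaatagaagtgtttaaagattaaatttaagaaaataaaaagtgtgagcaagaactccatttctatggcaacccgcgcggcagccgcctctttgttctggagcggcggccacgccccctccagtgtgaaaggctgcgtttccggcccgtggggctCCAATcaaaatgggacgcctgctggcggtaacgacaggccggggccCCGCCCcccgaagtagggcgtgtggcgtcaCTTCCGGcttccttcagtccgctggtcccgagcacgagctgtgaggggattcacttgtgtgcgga
Of the 7 subunits with a promoter window in the RefSeq table (CCT6A is the other one), 5 held a GC box, as did 45% of all 35116 windows, and 4 held a CCAAT box, as did 34.6%. The heat shock element was found in TCP1 alone and in 6.77% of all windows. The ETS core was found in CCT2 alone and in 10.3%, and an NRF1 site in CCT3 and CCT5 and in 5.78%. No motif was shared by all 7 windows. The CCT5 window, chr5:10250287-10250586 on the plus strand, lies inside the gene, past its RefSeq start at 10249921. Its NRF1 match therefore does not lie at that start.

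Values are reads per kilobase of transcript and per 1000000 library reads (RPKM), a footprint density that follows both the amount of an mRNA and the number of ribosomes on it, which cannot be told apart here. Library totals were 1899854 to 5832366 reads. The lowest, 1899854, belonged to 4SU+UVA replicate 2. A subunit had 710 to 11033 reads in a library, so counting error was small, with a coefficient of variation of 1.04% to 2.95% over a group. Reads amplified by PCR without molecular identifiers are not independent molecules, so this covers counting error only. Between replicates the coefficient of variation of a subunit was 3.3% to 11.7% with 4SU+UVA and 0.363% to 5.31% in the other 3 groups. The tests below use 1 spread per gene over all 4 groups. Where replicates varied more with 4SU+UVA, the SE of its comparisons may be too small. There the SE of comparisons without 4SU+UVA may be too large.

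The combined treatment lowered footprint density at all 8 subunits, and no 4SU+UVA library reached the level of any other library. CCT2 fell by 48.2%, the most of the 8, and TCP1 fell by 29.8%, the least. For every subunit the 3 libraries with 4SU+UVA lay below the other 9. The share of all genes below all 9 was not counted. It cannot exceed the 20.2% of genes whose 4SU+UVA libraries all lay below the untreated ones. Changes are differences of mean log2(RPKM + 0.5), in which the added 0.5 hardly moves values as high as these.

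**Figure D1:**
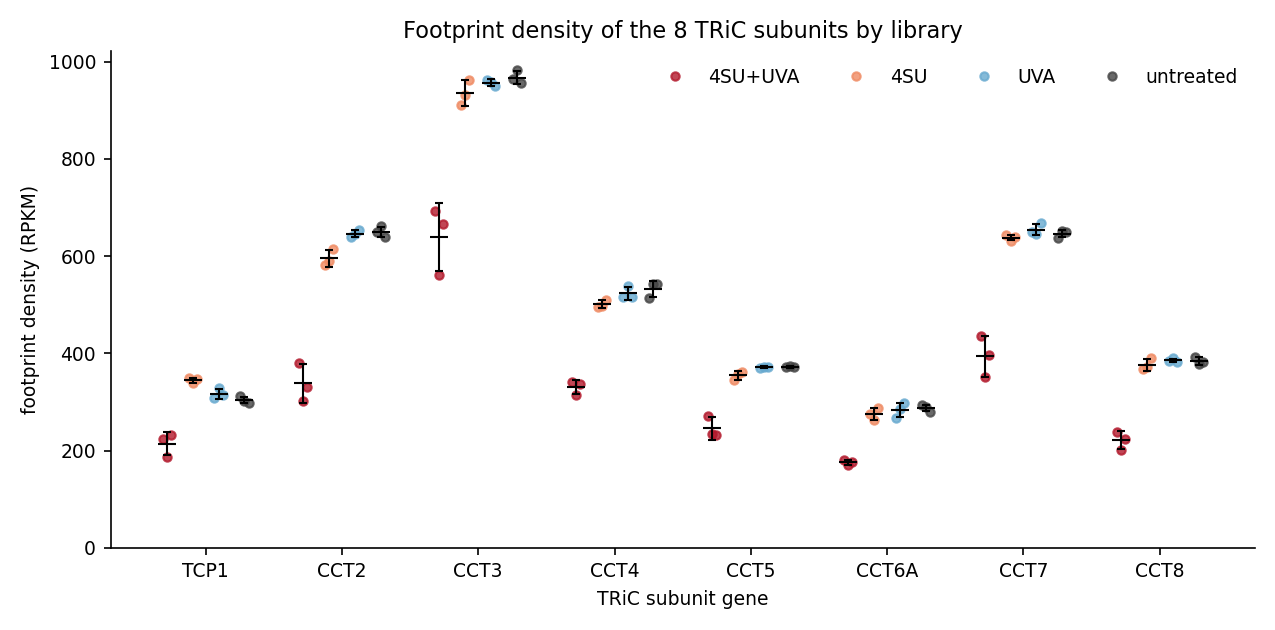
Footprint density in RPKM (vertical axis) of each of the 8 subunits in each library (coloured points), with the mean and SD of the 3 replicates of a group (black). For all 8 subunits the red 4SU+UVA points lie below those of the 3 other groups, and CCT3 is the highest and CCT6A the lowest subunit in every library.

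CCT2, which binds ATP tightly in yeast, had 380.8, 302.5 and 331.2 RPKM with 4SU+UVA, against 649.7, 661.3 and 640 RPKM in untreated cells. The groups were far apart, and its log2 change was -0.95 (SE 0.066, limma adjusted p = 5.4e-08). CCT8, a weak ATP binder in yeast, had 238.2, 201.6 and 223.7 RPKM with 4SU+UVA, against 392.5, 378.3 and 382.2 RPKM in untreated cells. Its log2 change was -0.80 (SE 0.059, limma adjusted p = 8.2e-08), and it fell by 42.5%, the most after CCT2.

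CCT7, CCT6A and CCT4 fell by nearly the same amount. CCT7 had 435.7, 351.7 and 396 RPKM with 4SU+UVA, against 637.7, 651.4 and 648.8 RPKM in untreated cells. CCT6A had 181.1, 169.7 and 176.9 RPKM with 4SU+UVA, against 293.9, 289.3 and 280.4 RPKM in untreated cells. CCT4 had 341.2, 315.2 and 337.1 RPKM with 4SU+UVA, against 513.2, 542.4 and 543.2 RPKM in untreated cells. Their log2 changes of -0.72, -0.71 and -0.69 (SE 0.062, 0.056 and 0.049, limma adjusted p = 3.9e-07, 1.6e-07 and 6.4e-08) mean that CCT7 fell by 39.1%, CCT6A fell by 38.8% and CCT4 fell by 37.8%. In no library did either group reach the other for these subunits.

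CCT3, the most densely covered subunit, had 692.4, 560.7 and 666.5 RPKM with 4SU+UVA, against 963.7, 982 and 956.8 RPKM in untreated cells. CCT5 had 272.1, 233.2 and 231.7 RPKM with 4SU+UVA, against 371, 373.5 and 371.4 RPKM in untreated cells. Both fell by 34.1%, with log2 changes of -0.60 each (SE 0.064 and 0.059, limma adjusted p = 2.6e-06 and 1.3e-06). TCP1 had 223.2, 187.8 and 232.4 RPKM with 4SU+UVA, against 312, 302.2 and 298.9 RPKM in untreated cells. Its log2 change of -0.51 (SE 0.068, limma adjusted p = 2.2e-05) was the smallest of the 8.

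Across the table more genes passed as higher than as lower. Of all genes tested, 18.4% were lower and 40.6% higher with 4SU+UVA than in untreated cells at an adjusted p under 0.05, the rule by which 8 of 8 subunits were lower. The libraries of both groups were apart, with 4SU+UVA lower, at 20.2% of genes and at 8 of 8 subunits. The median over all genes was 0.23 on the log2 scale and that over the subunits -0.70, so the subunits lay at -0.93 relative to the median gene. Between 3.47% of genes (for CCT2) and 11.2% (for TCP1) had a lower value than the subunit. Since the values of a library are divided by its total reads, these falls are relative to its other footprints, and absolute numbers of footprints are not known.

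**Figure D2:**
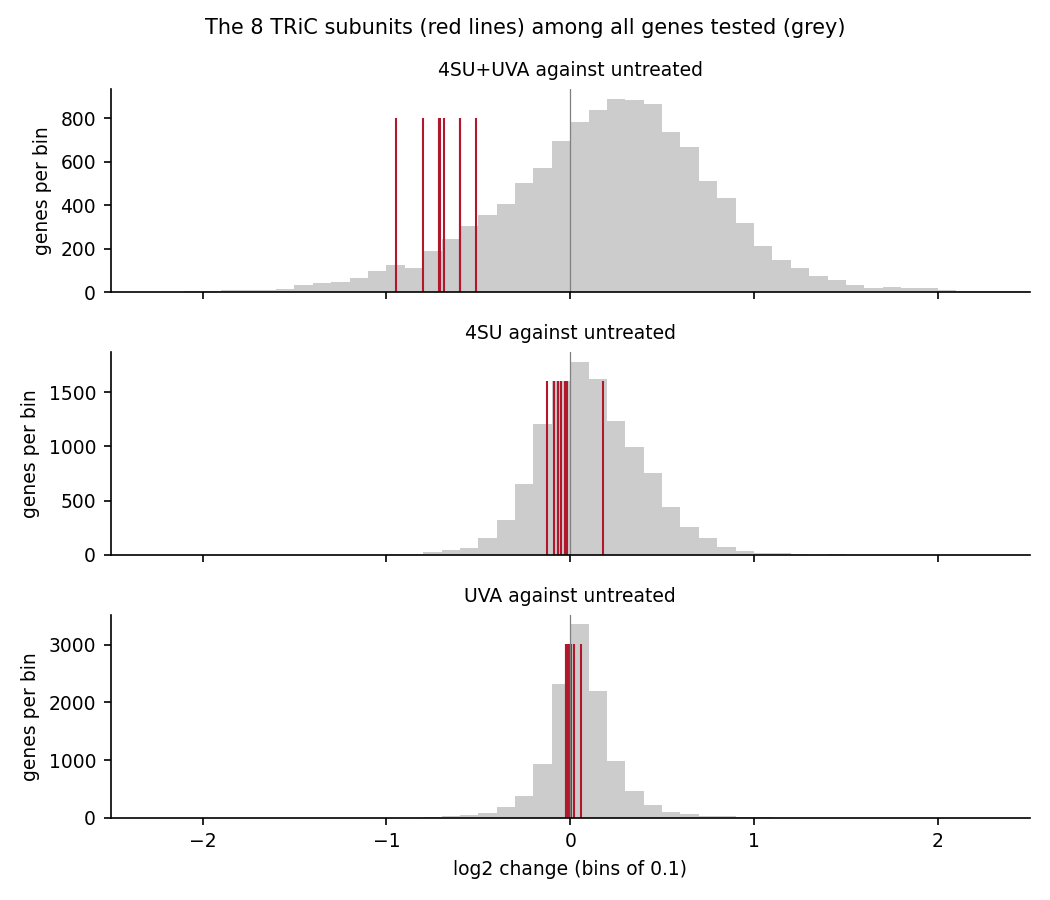
Number of genes (vertical axis, bins of 0.1) by log2 change (horizontal axis) for the 11510 genes tested, with the 8 subunits as red lines, for 4SU+UVA, 4SU and UVA against untreated cells. With 4SU+UVA the 8 lines stand between -0.95 and -0.51, left of the median gene at 0.23, whereas with UVA alone they stand between -0.02 and 0.06.

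As a description chosen after the table had been seen, the 348 other genes with a mean density at least that of CCT6A had a median of 0.21, with 84 lower and 193 higher. The 53 of them with a transcript within the range of the subunits, 1847 to 3293 nt, had a median of -0.29, with 31 lower and 12 higher. Among the subunits themselves the longer transcripts did not fall more. These lengths hold untranslated regions, and a dependence of the fall on length was not tested. The 3 that fell most, CCT2, CCT8 and CCT7, had the 3 shortest transcripts. CCT3, the next in length, and CCT5, the longest, were with TCP1 the 3 that fell least.

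With light alone no subunit passed the test. TCP1 had 307.7, 328 and 315 RPKM with UVA, against 312, 302.2 and 298.9 RPKM in untreated cells. CCT2 had 639.7, 645 and 653.7 RPKM with UVA, against 649.7, 661.3 and 640 RPKM in untreated cells, and here too the groups overlapped. None of the 8 passed (limma, adjusted p of 0.898 to 0.996), where 0.652% of all genes did. At an unadjusted p under 0.05, 0 of 8 passed as well (limma), a rule for which the share of all genes was not counted. The log2 changes were -0.02 to 0.06, and their 95% intervals lay between -0.15 and 0.20, so falls as large as those with 4SU+UVA lie outside the intervals. The libraries of both groups were apart for 0 of 8 subunits, and for 16.8% of all genes.

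4SU alone likewise gave no call, but TCP1 lay on the other side of 0 from the rest. TCP1 had 349.3, 338.6 and 346.6 RPKM with 4SU, against 312, 302.2 and 298.9 RPKM in untreated cells. Every 4SU library lay above every untreated one, and the log2 change was 0.18 (SE 0.068, limma adjusted p = 0.092, unadjusted p = 0.019). This is the value of TCP1 closest to the threshold, and it passed without 4SU+UVA replicate 2, which enters only the shared spread (limma adjusted p = 0.019). The coefficient of variation of TCP1 between replicates was 11% with 4SU+UVA, against 1.62% with 4SU and 2.24% in untreated cells. The missing call thus rests in part on the spread of a group outside this comparison.

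The other 7 had log2 changes of -0.13 to -0.02 with 4SU, and 0 of 8 subunits passed, where 14.4% of all genes did (limma, adjusted p under 0.05). At an unadjusted p under 0.05, 1 of 8 passed (limma), TCP1. The share of all genes by that unadjusted rule was not counted, so this count has no background beside it. CCT2 had 582.7, 589.1 and 615.1 RPKM with 4SU, against 649.7, 661.3 and 640 RPKM in untreated cells, with no overlap and a log2 change of -0.13 (SE 0.066, limma adjusted p = 0.22). CCT4 had 494.6, 498.3 and 510.1 RPKM with 4SU, against 513.2, 542.4 and 543.2 RPKM in untreated cells. CCT5 had 344.3, 357.8 and 362.5 RPKM with 4SU, against 371, 373.5 and 371.4 RPKM in untreated cells. The libraries were apart for these 3 subunits and for TCP1, 4 of 8, where 35.3% of all genes had groups apart. Relative to the median gene, which lay at 0.09, the median subunit lay at -0.15. With each library centred on its median gene, CCT2, CCT4 and CCT6A passed as lower, at -0.25, -0.21 and -0.19. The share of all genes passing under that centring is not given, so these calls have no background beside them. Without centring, the 53 other genes of like density and length described above had a median of -0.09, with 12 lower and 5 higher.

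**Figure D3:**
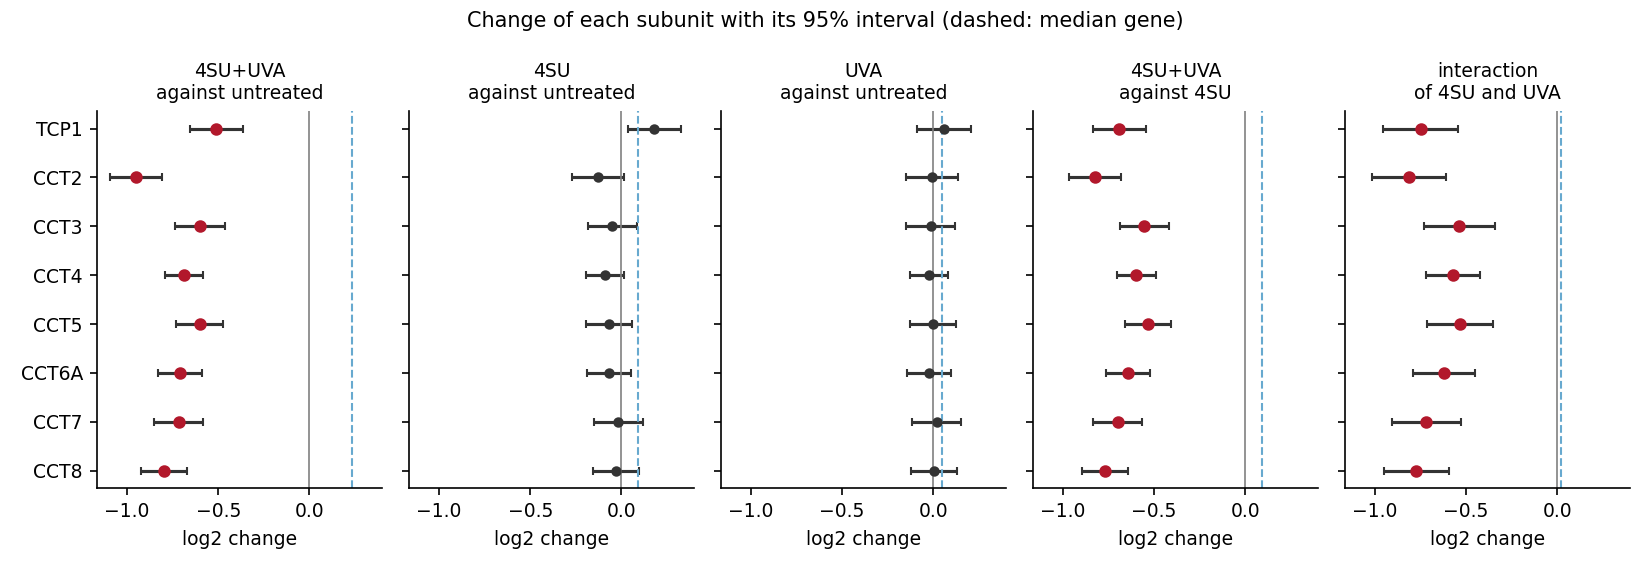
Log2 change (horizontal axis) of each subunit with its 95% interval in the 5 comparisons, with the changes past an adjusted p of 0.05 in red and the median gene as a dashed line. All 8 subunits are red in the comparisons of 4SU+UVA with untreated cells and with 4SU and in the interaction, and none is red for 4SU or UVA alone.

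In cells that already carried 4SU, light with its 30 min of recovery lowered all 8 subunits. With 4SU+UVA against 4SU the log2 changes ran from -0.82 for CCT2 (SE 0.066, limma adjusted p = 3.9e-07) to -0.53 for CCT5 (SE 0.059, limma adjusted p = 6.9e-06), and 8 of 8 were lower at an adjusted p under 0.05, where 19% of all genes were. Of the 53 other genes of like density and length described above, 27 were lower and 7 higher. TCP1 was here among the middle subunits, at -0.69 (SE 0.068, limma adjusted p = 2.2e-06), with 223.2, 187.8 and 232.4 RPKM with 4SU+UVA, against 349.3, 338.6 and 346.6 RPKM with 4SU. The 4SU+UVA libraries are the same as in the comparison with untreated cells, so both sets of values share them.

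The fall with both agents went beyond the added effects of each at all 8 subunits. The interaction, the UVA effect in cells carrying 4SU minus that in cells without it, was -0.81 for CCT2 (SE 0.094, limma adjusted p = 3.1e-05) and -0.77 for CCT8 (SE 0.083, limma adjusted p = 1.6e-05). It was smallest for CCT5, at -0.53 (SE 0.084, limma adjusted p = 0.0004). At an adjusted p under 0.05, the interaction was below 0 for 8 of 8 subunits and for 14.1% of all genes. By the same rule, it was below 0 for 22 of the 53 other genes of like density and length, and above 0 for 6.

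4SU+UVA replicate 2, the shallowest library, held the lowest value of its group for 7 of the 8 subunits, all but CCT5. Without it, the log2 changes against untreated cells were -0.87 for CCT2, -0.73 for CCT8, -0.68 for CCT6A, -0.65 for CCT4, -0.64 for CCT7, -0.57 for CCT5, -0.51 for CCT3 and -0.42 for TCP1, and 8 of 8 still passed.

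Over the complex as a whole the share of footprints was lower with 4SU+UVA than in every other library. The summed density of the 8 subunits was 2765, 2322 and 2595 RPKM with 4SU+UVA, 3966, 3984 and 4114 RPKM with 4SU, 4099, 4163 and 4155 RPKM with UVA, and 4134, 4180 and 4122 RPKM in untreated cells. The 8 genes took 0.561 ± 0.047% of library reads with 4SU+UVA, 0.875 ± 0.018% with 4SU, 0.9 ± 0.0085% with UVA and 0.902 ± 0.0066% in untreated cells (SD, n = 3 each). These sums describe the members and carry no test.

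The subunits were not covered equally in any group. In untreated cells the order by density was CCT3 at 968 ± 13 RPKM, CCT2 at 650 ± 10.7, CCT7 at 646 ± 7.26, CCT4 at 533 ± 17.1, CCT8 at 384 ± 7.37, CCT5 at 372 ± 1.35, TCP1 at 304 ± 6.83 and CCT6A at 288 ± 6.87 RPKM (SD, n = 3 each). Of the 7 pairs of neighbours in that order, only CCT2 and CCT7 overlapped between libraries. With 4SU+UVA the order was CCT3 at 640 ± 69.8 RPKM, CCT7 at 394 ± 42.1, CCT2 at 338 ± 39.7, CCT4 at 331 ± 14, CCT5 at 246 ± 22.9, CCT8 at 221 ± 18.5, TCP1 at 214 ± 23.5 and CCT6A at 176 ± 5.8 RPKM (SD, n = 3 each). There CCT7 overlapped CCT2, CCT2 overlapped CCT4, CCT5 overlapped CCT8 and CCT8 overlapped TCP1.

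The ratio of the highest to the lowest subunit, CCT3 over CCT6A in all 12 libraries, was 3.63 ± 0.28 with 4SU+UVA, 3.4 ± 0.12 with 4SU, 3.38 ± 0.20 with UVA and 3.36 ± 0.073 in untreated cells (SD, n = 3 each). The coefficient of variation over the 8 subunits was 43.9% to 48.2% in the 4SU+UVA libraries, 42.5% to 43.7% with 4SU, 43.2% to 45.3% with UVA and 43.9% to 45.4% in untreated cells. The 4SU+UVA range overlapped those of UVA and of untreated cells and lay just above that of 4SU.

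**Figure D4:**
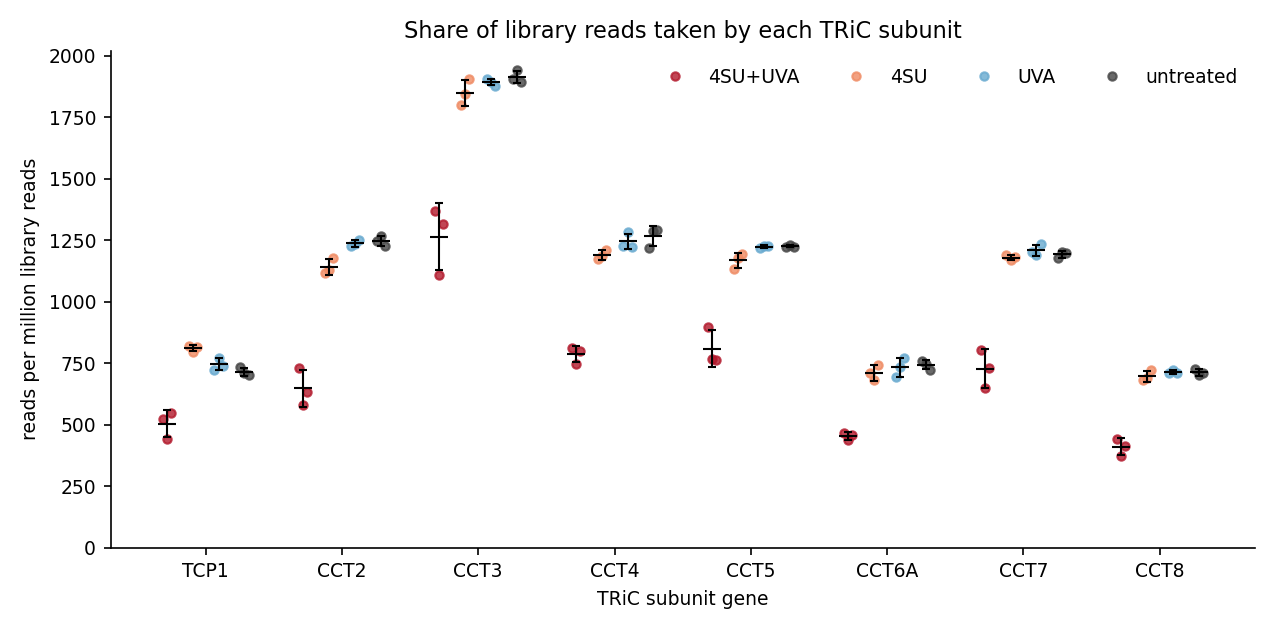
Reads of each subunit gene per 1000000 library reads (vertical axis), without division by transcript length, in each library, with the mean and SD of the 3 replicates (black). In the grey untreated points CCT2, CCT4, CCT5 and CCT7 stand together between 1178 and 1291 and TCP1, CCT6A and CCT8 between 701.3 and 759.5, with CCT3 above both.

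Because the transcript lengths hold untranslated regions, on which few footprints lie, the order also depends on the division by length. Counted as reads per 1000000 library reads, a share of the library and not a level per length, the genes fell into 3 tiers in untreated cells. CCT3 took 1913 ± 25.7, the tier of CCT4, CCT2, CCT5 and CCT7 took 1266 ± 40.5, 1246 ± 20.4, 1225 ± 4.45 and 1193 ± 13.4, and the tier of CCT6A, TCP1 and CCT8 took 744 ± 17.7, 716 ± 16.1 and 713 ± 13.7 reads per 1000000 (SD, n = 3 each). With 4SU+UVA, CCT5, CCT4, CCT7 and CCT2 took 809 ± 75.4, 787 ± 33.2, 729 ± 77.7 and 648 ± 76 reads per 1000000, and CCT3 took 1265 ± 138. TCP1, CCT6A and CCT8 took 504 ± 55.4, 455 ± 15 and 410 ± 34.2 reads per 1000000 with 4SU+UVA (SD, n = 3 each). Within the middle tier CCT2 overlapped CCT4 and CCT5 between libraries in untreated cells and CCT7 with 4SU+UVA, so its place there is not settled by these libraries.

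Whether 1 subunit moved apart from its partners was asked by refitting the model after the mean log2 density of the other 7 subunits had been taken off every library. TCP1 and CCT2 stood furthest from their partners, in opposite directions. With 4SU+UVA against untreated cells, TCP1 rose relative to the others by 0.21 (SE 0.059, limma adjusted p = 0.0033) and CCT2 fell by 0.29 relative to the others (SE 0.049, limma adjusted p = 6e-05). TCP1 made up 8.07% to 8.95% of the summed density in the 4SU+UVA libraries, against 7.23% to 7.55% in the untreated ones, and CCT2 12.8% to 13.8%, against 15.5% to 15.8%. Neither share overlapped between the groups. This did not set them apart from CCT3 (24.1% to 25.7%, against 23.2% to 23.5%) and CCT8 (8.62% to 8.68%, against 9.05% to 9.5%). The shares of CCT4, CCT5, CCT6A and CCT7 overlapped. Shares restate the same densities as the refit, and the share of all genes without such overlap was not counted.

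In this refit CCT8 was at -0.12 (SE 0.048, limma adjusted p = 0.032) and CCT3 at 0.11 (SE 0.047, limma adjusted p = 0.041), so that 4 of 8 subunits passed, where over the 8 refits 88.3% of genes did. Both lost the call with quantile normalisation (limma adjusted p = 0.064 for CCT8 and 0.14 for CCT3), without a variance trend (0.12 and 0.16) and with the replicate block (0.054 and 0.066), and CCT8 also with voom (0.055). CCT8 lost it without 4SU+UVA replicate 3, untreated replicate 1 or untreated replicate 3, and CCT3 without any single library except 4SU+UVA replicate 2, 4SU replicate 1 or 4SU replicate 3. By contrast, TCP1 and CCT2 kept theirs in all 19 other settings run for it. CCT4, CCT5, CCT6A and CCT7 lay between -0.02 and 0.11 and did not pass. Most genes stand above the subunits after this subtraction, so the adjusted p is close to the unadjusted one.

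**Figure D5:**
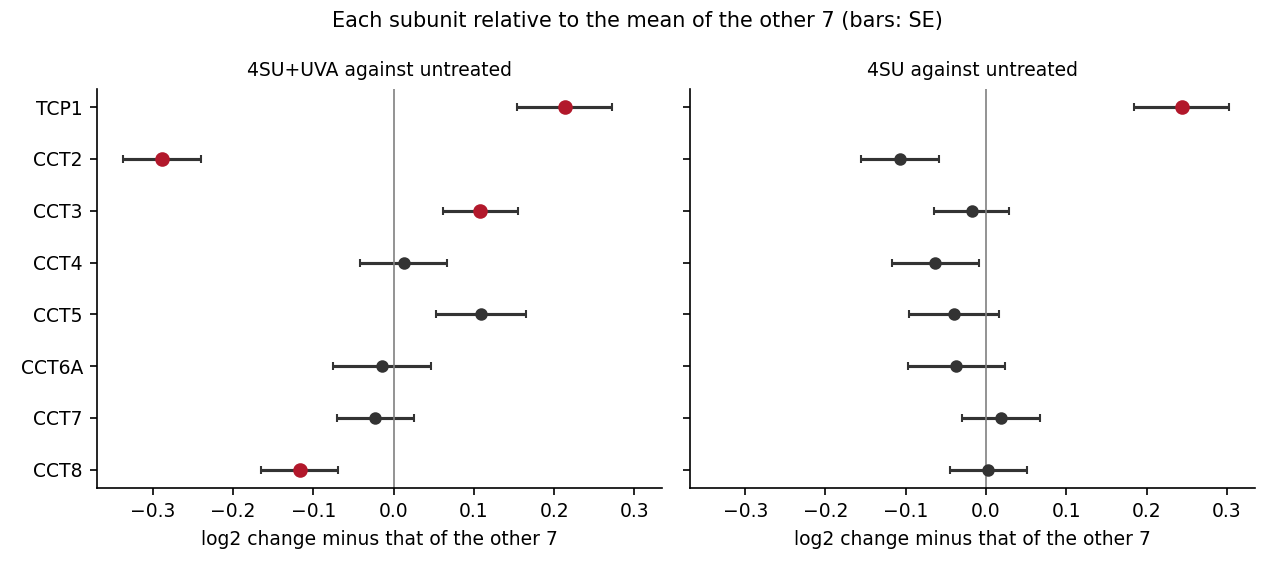
Log2 change of each subunit minus that of the mean of the other 7 (horizontal axis, bars give the SE) for 4SU+UVA (left) and 4SU (right) against untreated cells, with values past an adjusted p of 0.05 in red. TCP1 lies at 0.21 on the left and 0.24 on the right, and CCT2 lies at -0.29 on the left.

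With 4SU alone against untreated cells, TCP1 was also higher than its partners. This comparison and that of 4SU+UVA share their untreated libraries, so they are not separate observations. Relative to the other 7, TCP1 was higher by 0.24 (SE 0.059, limma adjusted p = 0.014), and it was the 1 subunit of 8 to pass. Over the 8 refits 12.6% of genes passed, so a count of 1 in 8 is no more than the background. The call was lost without a variance trend (limma adjusted p = 0.063), and without 4SU replicate 1, untreated replicate 2 or untreated replicate 3, with limma adjusted p of 0.061, 0.059 and 0.056. The share of TCP1 in the summed density was 8.42% to 8.81% in the 4SU libraries, against 7.23% to 7.55% in the untreated ones. Light added to 4SU did not move it further from its partners, at -0.03 (SE 0.059, limma adjusted p = 0.63), with a share of 8.07% to 8.95% with 4SU+UVA, against 8.42% to 8.81% with 4SU.

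For 4SU+UVA against 4SU, CCT2 was at -0.18 relative to the others (SE 0.049, limma adjusted p = 0.0032), a call kept in all 19 other settings. CCT3, CCT5 and CCT8 also passed there, at 0.13, 0.15 and -0.12 (limma adjusted p = 0.021, 0.023 and 0.031), 4 of 8 in all, where over the 8 refits 84.1% of genes did. None of these 3 calls held in all settings. Without a variance trend the limma adjusted p was 0.11 for CCT3, 0.082 for CCT5 and 0.11 for CCT8, and with quantile normalisation it was 0.11 for CCT3 and 0.17 for CCT8. CCT8 also lost the call with the replicate block (0.052) and with voom (0.053), and without 4SU+UVA replicate 3, 4SU replicate 2 or 4SU replicate 3. CCT3 lost it without 4SU+UVA replicate 3 or 4SU replicate 1, and CCT5 without 4SU+UVA replicate 1, 4SU+UVA replicate 2 or 4SU replicate 1.

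The interaction of CCT2 relative to the others was -0.17 (SE 0.069, limma adjusted p = 0.042), the 1 of 8 that passed, where 66.8% of genes did, and it was lost on leaving out any single library except 4SU+UVA replicate 1 or 4SU replicate 1. It was lost as well with the replicate block (limma adjusted p = 0.064), without a variance trend (0.14) and with voom (0.052). With UVA alone 0 of 8 subunits passed relative to the others (limma, lowest adjusted p = 0.91), where 0.419% of genes did. At an unadjusted p under 0.05, 0 of 8 passed as well (limma), a rule for which the share of all genes was not counted.

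The subunits were close to each other in profile over the 12 libraries, CCT7 most and TCP1 and CCT2 least. Likeness was taken as the root-mean-square difference of 2 log2 profiles, each centred on its own mean, over the genes with a mean of at least 20 RPKM. CCT7 was 0.033 from the mean of the other 7, nearer than any of the 3927 other genes, and CCT4 and CCT6A, at 0.049 and 0.051, each ranked 5 against those genes. CCT3 and CCT8 ranked 9, CCT5 ranked 30, TCP1 ranked 218 and CCT2 ranked 289. The median gene was 0.35 from the mean of the 8. Distances of genes outside the complex are here from that mean of the 8, unlike those of the subunits, which are from the other 7. The nearest gene outside the complex, at 0.038, was ENSG00000130741.11, with a transcript of 3457 nt and 98.2 RPKM with 4SU+UVA, 151 with 4SU, 150 with UVA and 151 in untreated cells. The next, at 0.039, was ENSG00000088247.19, with 2993 nt and 171 RPKM with 4SU+UVA, 255 with 4SU, 276 with UVA and 269 in untreated cells. The files pair neither with a symbol.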

How the data were processed

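The authors deposited RPKM values, footprint reads per kilobase and per 1000000 library reads, 1 column per library. STAR 2.7.10a and the hg38 build are named in the submitters' processing notes. No source used here states how reads were counted. Members were named by the identifier list, and 0 identifiers of the table matched the RefSeq gene table, so the lists of prefoldin, cofactors, substrates, other complexes and cell type markers were not analysed here. Members and lists were chosen with earlier results of these data known.

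Library totals, transcript lengths and whole reads (within 0.001) were recovered from the steps of the values. At totals moved by up to 1%, 0 of 1000 genes had a fitting length. Tests used limma 3.58.1 in R 4.3.3 on log2(RPKM + 0.5), 1 model of 4 group means over 12 libraries (8 residual degrees of freedom), a variance trend, two-sided, with Benjamini-Hochberg adjustment at 0.05 over 11510 genes, those reaching 1 RPKM in 3 or more libraries. The fit was tested on simulated counts, with the same dispersion in every library and few changed genes. That test therefore covers neither the wider spread with 4SU+UVA nor the large share of genes that passed here. Named genes are the 8 members and, by a fixed likeness rule, the nearest genes, of which 2 are printed. Alternatives were the pseudocount, filter, scaling, trend, a replicate block, leaving out each library and, added after seeing the data, limma's voom on recovered reads. The labels do not say whether the replicate numbers pair the libraries. Deviations of same-numbered libraries correlated at -0.05 to 0.07, and those of differently numbered ones at -0.07 to 0.06. No shared deviation by number was thus seen, which cannot show how the libraries were prepared.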

Additional observations from a re-analysis of the deposited data

Results flagged for a closer look

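The UVA effect on every subunit differed between cells that carried 4SU and cells that did not, by the test of that difference over 12 libraries (limma, log2 scale). The difference was -0.75 for TCP1, -0.81 for CCT2, -0.54 for CCT3, -0.57 for CCT4, -0.53 for CCT5, -0.62 for CCT6A, -0.72 for CCT7 and -0.77 for CCT8, with adjusted p of 1.6e-05 (CCT8) to 0.00062 (CCT3). In the main fit, 14.1% of all genes had a difference below 0 at an adjusted p under 0.05. Over the 20 other settings, which reuse the same libraries, 160 of 160 subunit values kept their direction and their call.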

How the results depend on the processing

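For 4SU+UVA against untreated cells, for 4SU+UVA against 4SU and for the interaction, 8 of 8 subunits passed in the same direction under all 20 other settings. For UVA against untreated cells 0 passed under any of them. For 4SU against untreated cells the count of 0 became 3 with each library centred on the median gene (CCT2, CCT4 and CCT6A, lower), 1 with quantile normalisation and 1 with voom (TCP1, higher, both times), and 0 to 1 on leaving out single libraries. The count relative to the other 7 subunits was 4 for 4SU+UVA against untreated cells and became 2 with quantile normalisation, 2 without a variance trend, 2 with the replicate block and 2 to 4 on leaving out single libraries. For 4SU against untreated cells that count of 1 became 0 without a variance trend and 0 to 1 on leaving out single libraries. For 4SU+UVA against 4SU the count of 4 became 2 with quantile normalisation, 1 without a trend, 3 with the replicate block, 3 with voom and 2 to 4 on leaving out single libraries. For the interaction the count of 1 became 3 with quantile normalisation, 0 without a trend, 0 with the replicate block and 0 to 1 on leaving out single libraries, and with voom it stayed at 1 with CCT3 in place of CCT2. The replicate block moved no call on a subunit's own change. Changes near 0 crossed it. With median centring, UVA against untreated cells gave -0.024 for TCP1, -0.063 for CCT7 and -0.077 for CCT8. With quantile normalisation it gave 0.025 for CCT2, 0.017 for CCT3 and 0.0038 for CCT4, CCT7 was at 0.0033 for 4SU against untreated cells, and, relative to the other 7, CCT4 was at -0.0049 and CCT6A at 0.046 for 4SU+UVA, CCT8 at -0.027 for 4SU, and CCT2 at 0.013 and CCT3 at 0.0041 for UVA. On leaving out single libraries, UVA against untreated cells ranged over -0.021 to 0.0029 for CCT2, -0.0035 to 0.0022 for CCT5, -0.059 to 0.018 for CCT6A and -0.0069 to 0.020 for CCT8, and relative to the other 7 over -0.011 to 0.0021 for CCT5, -0.063 to 0.0072 for CCT6A and -0.014 to 0.021 for CCT8. Relative to the other 7, CCT4 ranged over -0.019 to 0.049 and CCT6A over -0.057 to 0.022 for 4SU+UVA against untreated cells, CCT8 over -0.015 to 0.019 for 4SU, and TCP1 over -0.089 to 0.0033 and CCT6A over -0.020 to 0.060 for 4SU+UVA against 4SU. The causes were not tested. Shares of all genes passing under these other settings are not given. Median centring cannot alter a change relative to the other 7 and was not run there. Every subunit had at least 710 reads in a library, and the lowest was in the shallowest library, 4SU+UVA replicate 2.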
